A study of Rattus norvegicus with 16 samples.

Results

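Mbp, Mag, Mog, Mobp and Cnp are myelin and oligodendrocyte genes whose RNA was measured here in rat pontine nuclei after the axons leaving these nuclei had been injured. The members were all probe sets whose gene symbol in the platform annotation was 1 of these 5 names. There were 11 such probe sets: 1 for Mbp, 3 for Mag, 2 for Mog, 4 for Mobp and 1 for Cnp. They stood among 8799 probe sets on the array, of which 6283 had exactly 1 symbol, for 4358 genes. All 11 passed the filter on detection and were among the 4413 tested probe sets.

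The axons had received saline or lysolecithin, a lipid that dissolves myelin, or had been cut (transection), and nuclei were taken on day 4, 10 or 37 afterwards. The lesion lay at a distance, and RNA came from the nuclei that hold the neuronal cell bodies. The 16 Affymetrix arrays comprised 9 of the lesion side, with 3 days for each of 3 interventions, 6 of the opposite, contralateral side, which has days 10 and 37 alone, and 1 healthy control. The contralateral nuclei served as the study's controls, and they came from animals that had also been operated on. Strain, sex, age and the number of animals behind an array are not given in the sources used here. Each condition had 1 array. The 3 days of an intervention therefore took the place of replicates, and SE and p-values reflect how arrays of unlike conditions varied.

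Oligodendrocytes wrap axons of the brain in myelin, a stack of compacted membrane. Mbp (myelin basic protein) holds the inner faces of that membrane together, and Mobp (myelin-associated oligodendrocytic basic protein) is a smaller basic protein of the same compacted layers. Cnp is an enzyme of the non-compact myelin and of the oligodendrocyte's cytoplasm. Mag (myelin-associated glycoprotein) sits on the innermost wrap, facing the axon, and Mog (myelin oligodendrocyte glycoprotein) on the outermost surface of the sheath. In brain these genes are used as markers of mature, myelinating oligodendrocytes. The arrays also measured neuronal RNA: each of the 10 genes on a list of neuronal markers that could be tested was called Present on all 16 arrays by at least 1 probe set.

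The myelin genes were detected throughout. Of the 11 probe sets, 10 were called Present on all 16 arrays. The exception, L21995_s_at for Mog, was Present on 13 arrays, Marginal on the transection lesion-side array of day 10, and Absent on the contralateral arrays of transection day 10 and lysolecithin day 37. On the MAS5 signal scale, which was brought by the authors to the same trimmed mean on every array, the highest array exceeded the lowest by 1.32-fold for Mag M22357_g_at at the least and by 2.33-fold for Mag M22357_at at the most. A signal of 1 probe set can be compared between arrays but not with that of another probe set, so no order among the genes is given.

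For Mbp (K00512_at) the lesion-side signals were 23348, 25133 and 24238 on days 4, 10 and 37 after saline, 22580.1, 26131 and 24684 after lysolecithin, and 25016, 26101 and 22863 after transection. The contralateral signals on days 10 and 37 were 27867 and 25943 for saline, 23504 and 25414 for lysolecithin, and 27835 and 25628 for transection. The healthy array read 19375, below each of the other 15, and the lesion-side and contralateral arrays overlapped. Over the 16 arrays the log2 signal of Mbp had an SD of 0.13, smaller than that of all but 4.06% of the tested probe sets. Among the 442 brightest probe sets this SD was at percentile 15.6.

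Cnp (L16532_at) was as steady, with signals of 5656, 5658 and 5647 after saline, 5040.3, 6268 and 5167 after lysolecithin and 5249.6, 5609 and 5839.9 after transection on the lesion side, in the order of the days. The 3 saline lesion-side arrays were nearly equal, with an SD of 0.0014 in log2 signal. The lowest Cnp signal, 4628, and the highest, 6399, were both contralateral arrays of transection, on days 37 and 10. The SD of its log2 signal was 0.12, at percentile 2.24 of all tested probe sets, whose median SD was 0.25. Bright probe sets varied less, with a median SD of 0.18 among the 442 brightest, where Cnp was at percentile 8.37. These percentiles were computed after the members' values had been seen, and they describe these 16 arrays.

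For Mobp, the brightest probe set (D28111_g_at) gave lesion-side signals of 20421, 19734 and 15617 after saline, 17448, 16908 and 17267 after lysolecithin, and 20602, 18599.9 and 16983 after transection. Its contralateral signals were 20277 and 17292 for saline, 16569 and 18299.9 for lysolecithin, and 19432 and 18822 for transection, again in the order of the days. As for Mbp, the healthy array was the lowest, at 14649, and it was also the lowest for D28111_at, at 7555. The healthy array stood apart in general: its log2 signals correlated with those of the others at 0.925 to 0.948, against 0.949 to 0.979 between the others, and 39.9% of its probe sets were called Present, the smallest share. On the other Mobp probe sets it was not the lowest: from the lowest it ranked 5 of 16 for D28110_g_at (3695.5) and 11 of 16 for D28110_at (1394). The healthy control is a single array, so its low values for Mbp, D28111_g_at and D28111_at have no replicate check.

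**Figure D1:**
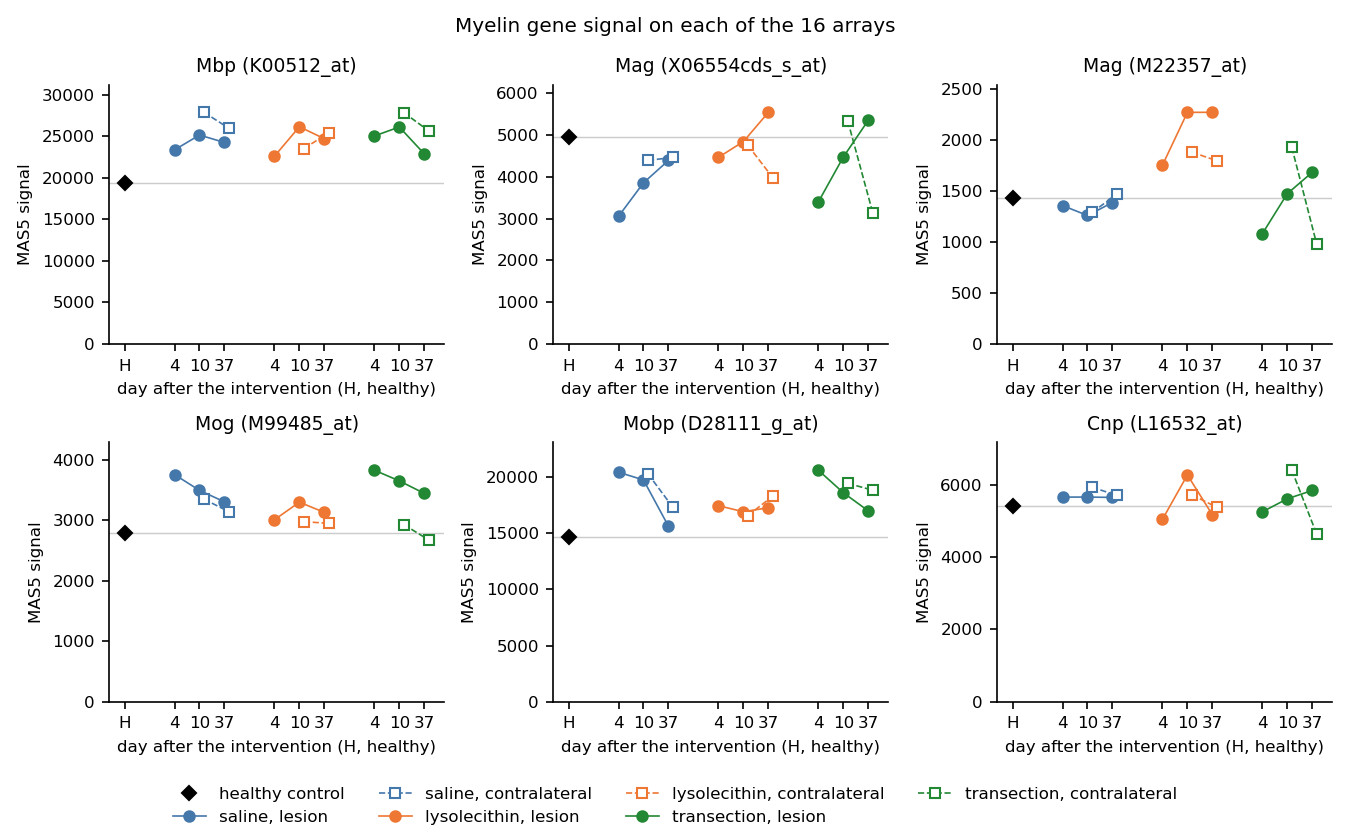
MAS5 signal (linear scale from 0) of 6 member probe sets on the 16 arrays, by day after the intervention: filled circles, lesion side; open squares, contralateral side; black diamond and grey line, the healthy control array. Mbp and Mobp D28111_g_at were lowest on the healthy array (19375 and 14649). Mag M22357_at was higher on the 3 lysolecithin lesion-side arrays (1752 to 2271) than on the 3 saline lesion-side arrays (1259.6 to 1386).

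None of the 11 probe sets changed past the threshold in any of 13 comparisons. In limma, with Benjamini-Hochberg adjustment over 4413 probe sets and a threshold of 0.05, the smallest adjusted p among their 143 tests was 0.0869. Few other probe sets passed. The share called was 0.725% for transection against saline, 0.159% for lysolecithin against saline and 0.476% for transection against lysolecithin on the lesion side. It was 0.0453% for day 10 against day 4, 0% for day 37 against day 10 and 0.0227% for day 37 against day 4. Against the 7 control arrays (6 contralateral and 1 healthy) it was 0.0227% for transection, 0% for lysolecithin and 0% for saline, and in the 6 pairs of lesion and contralateral side it was 0%. Among the contralateral arrays it was 0.0227% for lysolecithin against saline, 0% for transection against saline and 0% for day 37 against day 10. At an unadjusted p under 0.05 there were 13 member results among the 143 tests, 9.09%, beside 10.0% of all 57369 tests of the 13 comparisons. The differences lay between -0.58 and 0.64 on the log2 scale, and 134 of the 143 were smaller than 0.3 in size. A result that misses the threshold does not show that levels were equal, so intervals are given for the main ones. In these bulk samples fewer oligodendrocytes and less myelin RNA per cell cannot be told apart.

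Demyelination was compared with its saline control on the lesion side. Mag M22357_at and X06554cds_s_at had the largest differences of the 11 probe sets, and those of Mbp and Cnp were under 0.1 in size. The probe sets of Mog and of Mobp disagreed in direction. Mag M22357_at gave signals of 1752, 2270.2 and 2271 on days 4, 10 and 37 after lysolecithin, and 1357, 1259.6 and 1386 after saline. Each lysolecithin array exceeded each saline array. The log2 difference was 0.64 (SE 0.14, 95% interval 0.33 to 0.95, n = 3 arrays a group), which is 1.56-fold, with an adjusted p of 0.0869 in limma.

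The other Mag probe sets pointed the same way. X06554cds_s_at gave 4464, 4840.4 and 5540.3 after lysolecithin and 3052, 3854 and 4389.7 after saline, which differ by 0.40 on the log2 scale (SE 0.11, interval 0.16 to 0.64, limma adjusted p 0.112). M22357_g_at gave 4475, 4571 and 4286 after lysolecithin and 3799.8, 3745 and 4073 after saline, a log2 difference of 0.20 (SE 0.11, interval -0.03 to 0.43, limma adjusted p 0.302). In all 3 Mag probe sets the lysolecithin array was the higher one on 3 of 3 days and the groups did not overlap. Mog M99485_at did not overlap either, in the opposite direction: 3008, 3299 and 3129 after lysolecithin against 3754, 3494 and 3303 after saline, which is -0.16 on the log2 scale (SE 0.11, limma adjusted p 0.430). The other Mog probe set, L21995_s_at, was higher after lysolecithin on 2 of 3 days, with 1711, 1282.5 and 1783 against 1162.5, 1389 and 1376, a difference of 0.27 (SE 0.19, interval -0.14 to 0.68, limma adjusted p 0.429). Single arrays set the size for Mog: without the lysolecithin array of day 4 the differences were -0.09 for M99485_at and 0.06 for L21995_s_at, and without that of day 10 L21995_s_at had 0.53. Mog therefore has no single direction in this comparison. So 4 of the 11 probe sets had groups that did not overlap, beside 23.1% of all tested probe sets, and 2 of 11 had an unadjusted p under 0.05, beside 20.6% of all.

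Mbp had a log2 difference of 0.01 (SE 0.08, interval -0.17 to 0.19) and Cnp of -0.05 (SE 0.11, interval -0.29 to 0.19). For these 2 genes the upper bound was 0.19, and the lower bound was farther from 0 for Cnp. Mobp ran from -0.10 for D28111_g_at (SE 0.10, interval -0.31 to 0.11) to 0.21 for D28110_g_at (SE 0.14, interval -0.09 to 0.50; 0.09 without the saline array of day 4, 0.13 without that of day 37, 0.39 without that of day 10 and 0.31 without the lysolecithin array of day 10), with 0.05 for D28111_at (SE 0.10) and 0.06 for D28110_at (SE 0.16, interval -0.29 to 0.41). The median over the 5 genes, each by its brightest probe set, was -0.05, with 2 of 5 higher, beside 0.02 over all tested probe sets.

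The Mag signal, most of all that of X06554cds_s_at, was lower where 1 measure of RNA quality, the beta-actin 3′/5′ ratio, was higher. The beta-actin probe sets near the 3′ and 5′ ends of that transcript give a signal ratio that rises as RNA is degraded or copied incompletely, and it ran from 1.04 to 1.68 over the arrays. The lesion-side arrays of saline had ratios of 1.41 to 1.68, those of lysolecithin 1.20 to 1.44 and those of transection 1.07 to 1.42. The array with the highest ratio, saline lesion side of day 4, had 47.0% of its probe sets called Present. The healthy array, with the lowest ratio, had 39.9%. Over the 16 arrays the log2 signal of X06554cds_s_at had a Pearson r of -0.799 with this ratio (permutation p 0.00014, 0.00154 after Benjamini-Hochberg adjustment over the 11 probe sets) and a Spearman rho of -0.750 (permutation p 0.00145, adjusted 0.0159, both two-sided with 100000 permutations). Without the 2 arrays whose ratio lay farthest from the median, r was -0.626. It was -0.806 within the 9 lesion-side arrays and -0.844 within the 7 control arrays. Without the same 2 farthest arrays it was -0.36 for Mag M22357_g_at and -0.46 for Mag M22357_at. Within the lesion-side arrays r was -0.67 for Mag M22357_g_at and -0.48 for Mag M22357_at. It was -0.74 there for Mobp D28110_g_at and -0.71 for Mog L21995_s_at. The rest of the members ran there from -0.34 (Mbp) to 0.44 (Mobp D28111_g_at). Over all 16 arrays r was weaker for Mobp D28110_g_at (-0.34) and Mog L21995_s_at (-0.47). Within the 7 control arrays these 2 had -0.18 and -0.20, and without the 2 farthest arrays 0.08 and -0.40.

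Over all 16 arrays the other Mag probe sets had r of -0.590 and -0.558 (M22357_g_at and M22357_at), each with an adjusted permutation p of 0.0914. For the other 8 member probe sets this p was at least 0.160. Among all tested probe sets the median r was 0.03, and 2.54% had an r as low as that of X06554cds_s_at. This relation was looked for after the Mag values had been seen. The permutations shuffled all 16 arrays without regard to intervention, day or side. On the lesion side the ratio differed between interventions and days, so the permutation p does not separate the relation from the design. The part of the ratio in the differences of Mag, Mog or Mobp was not tested. The GAPDH 3′/5′ ratio, another measure of this kind, ran from 1.03 to 1.26 and put the arrays in another order. The healthy array had the lowest beta-actin ratio, 1.04, and the highest GAPDH ratio, 1.26. The member signals were not compared with the GAPDH ratio.

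**Figure D2:**
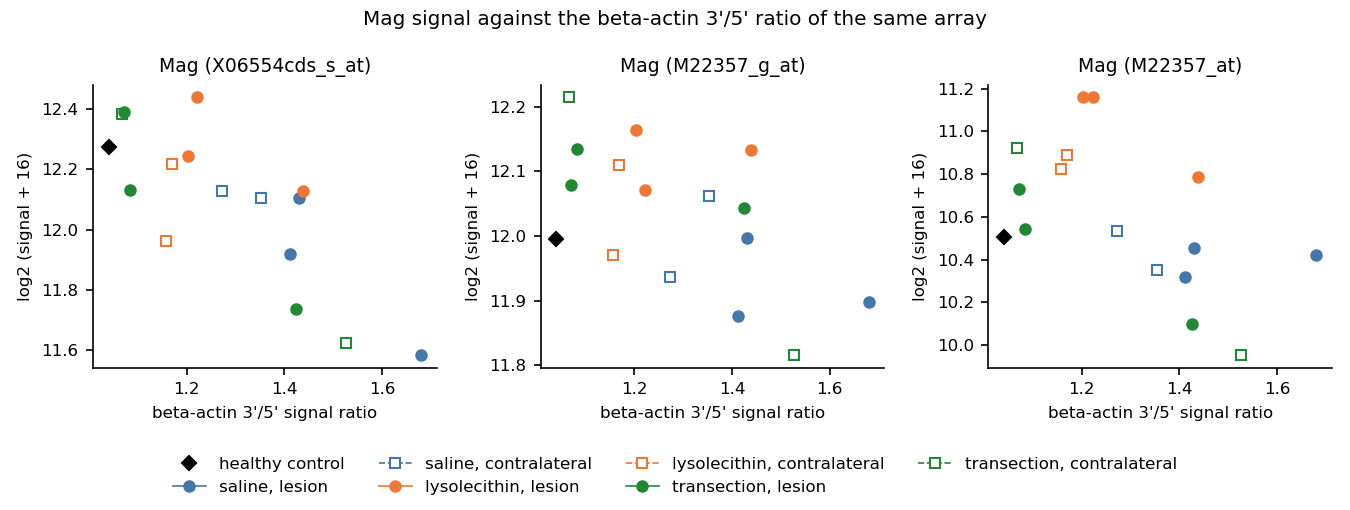
Log2(signal + 16) of the 3 Mag probe sets against the beta-actin 3′/5′ signal ratio of the same array, 1 point per array; filled circles, lesion side; open squares, contralateral side; diamond, healthy control. The Mag signal was lower where the ratio was higher (r of -0.799, -0.590 and -0.558 from left to right), and the 3 saline lesion-side arrays had ratios of 1.41 to 1.68.

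The same interventions were also compared on the contralateral side. Contralateral Mag M22357_at signals were 1881 and 1795 after lysolecithin and 1289.5 and 1468 after saline on days 10 and 37. For this probe set the lysolecithin arrays were thus higher on this side as well. The log2 difference was 0.41 (SE 0.28, interval -0.21 to 1.03, n = 2 arrays a group, limma adjusted p 0.999). It was 0.06 without the saline array of day 10, 0.76 without that of day 37 and 0.25 without the lysolecithin array of day 37. Its size thus moved with each of these arrays. The lesion-minus-contralateral difference of M22357_at was larger after lysolecithin than after saline by 0.36 (SE 0.33, limma adjusted p 0.9996), which is not past the threshold. The other Mag probe sets were near 0 in the contralateral comparison. X06554cds_s_at had a log2 difference of -0.03 (SE 0.23, higher on 1 of 2 days) and M22357_g_at of 0.04 (SE 0.20). On the contralateral side 4 of the 11 probe sets did not overlap between lysolecithin and saline, beside 33.3% of all, with 2 arrays in each group, and 0 of 11 had an unadjusted p under 0.05, beside 3.6% of all. For contralateral transection against saline, 2 of 11 did not overlap, beside 28.7%, and 0 of 11 had an unadjusted p under 0.05, beside 3.15%. The summed signal of the 10 tested microglia and macrophage genes also differed there, at 18612 to 24204 after lysolecithin and 12080 to 12306 after saline, and its part was not tested.

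Axonal transection was likewise compared with saline on the lesion side. The largest differences were those of Mog L21995_s_at, Mobp D28110_g_at and Mag X06554cds_s_at, and none passed. Mog L21995_s_at gave 1225, 2124 and 1739 on days 4, 10 and 37 after transection, the second of them called Marginal, higher than saline on 3 of 3 days, with a log2 difference of 0.34 (SE 0.19, interval -0.07 to 0.75, limma adjusted p 0.376). Mobp D28110_g_at gave 4520.1, 4642 and 5083 against 3265, 5044 and 3857 after saline, a difference of 0.25 (SE 0.14, interval -0.05 to 0.55, limma adjusted p 0.376). For both, the groups overlapped, and single arrays set the size. Mog L21995_s_at had 0.11 without the transection array of day 10, the one called Marginal, and 0.54 without that of day 4. Mobp D28110_g_at had 0.13 without the saline array of day 4 and 0.44 without that of day 10. Within the 9 lesion-side arrays the r with the beta-actin ratio was -0.71 for Mog L21995_s_at and -0.74 for Mobp D28110_g_at. Over all 16 arrays it was -0.47 and -0.34. The part of that ratio in these differences was not tested. Mag X06554cds_s_at gave 3396, 4470.4 and 5350.0 on days 4, 10 and 37 after transection, higher than saline on 3 of 3 days, although the groups overlapped. Its log2 difference was 0.22 (SE 0.11, interval -0.02 to 0.46, limma adjusted p 0.343). Mag M22357_at, at 1081, 1474 and 1683, differed by 0.06 (SE 0.14, interval -0.25 to 0.37), and M22357_g_at by 0.16 (SE 0.11, interval -0.07 to 0.39). The remaining differences were 0.02 for Mbp (SE 0.08, interval -0.16 to 0.20), 0.05 for Mog M99485_at (SE 0.11, interval -0.19 to 0.29), 0.02 for Mobp D28111_g_at (SE 0.10, interval -0.19 to 0.22), 0.11 for D28111_at (SE 0.10), -0.10 for D28110_at (SE 0.16) and -0.02 for Cnp (SE 0.11, interval -0.26 to 0.21). None of the 11 had an unadjusted p under 0.05, beside 16.9% of all tested probe sets, and 1 of 11 did not overlap (M22357_g_at), beside 15.1% of all.

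Between the injuries themselves, Mag M22357_at was lower after transection than after lysolecithin on 3 of 3 days, with a log2 difference of -0.58 (SE 0.14, interval -0.89 to -0.27, limma adjusted p 0.139). Mog M99485_at was higher after transection, at 3827, 3650.0 and 3444 on the 3 days against 3008, 3299 and 3129, with a log2 difference of 0.21 (SE 0.11, interval -0.03 to 0.45, limma adjusted p 0.421), or 0.14 without the lysolecithin array of day 4. These probe sets were the 2 of 11 whose groups did not overlap, beside 16.2% of all, and 1 of 11 had an unadjusted p under 0.05, beside 13.6% of all. The lysolecithin arrays are the same as in the comparison with saline.

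**Figure D3:**
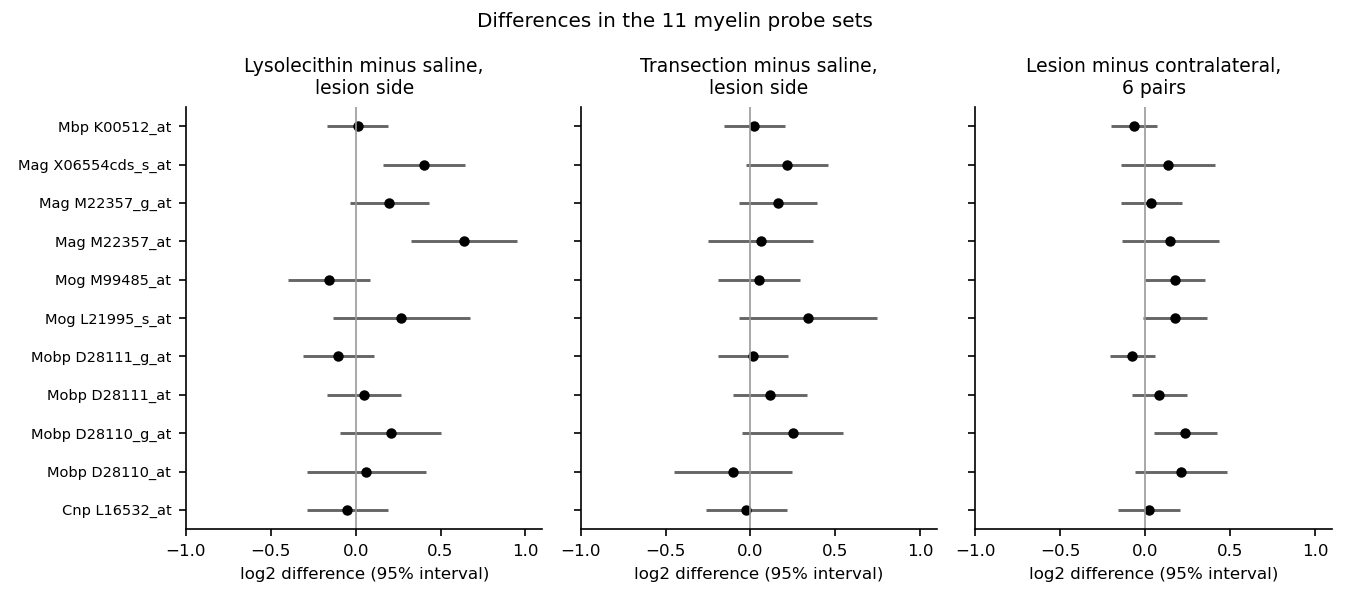
Log2 difference (points) with its 95% interval from limma (bars) for the 11 member probe sets in 3 comparisons: lysolecithin minus saline and transection minus saline on the lesion side (3 arrays a group), and lesion minus contralateral side (6 pairs). The intervals of Mag X06554cds_s_at and M22357_at lay above 0 for lysolecithin against saline (0.16 to 0.64 and 0.33 to 0.95), and no probe set passed the threshold after adjustment.

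Over the days after the intervention, Mag X06554cds_s_at and M22357_at had the largest differences on the lesion side between days 37 and 4. X06554cds_s_at stood at 3052, 4464 and 3396 on day 4 (saline, lysolecithin and transection), 3854, 4840.4 and 4470.4 on day 10, and 4389.7, 5540.3 and 5350.0 on day 37. It was higher on each later day within all 3 interventions, while the days overlapped across interventions. Day 37 exceeded day 4 by 0.50 on the log2 scale (SE 0.11, interval 0.25 to 0.74, limma adjusted p 0.147), which is 1.41-fold, and day 10 exceeded day 4 by 0.28 (SE 0.11, limma adjusted p 0.314). The beta-actin ratios of day 4 were 1.68, 1.44 and 1.42 and those of day 37 were 1.43, 1.22 and 1.07 for saline, lysolecithin and transection, lower on day 37 in each intervention; their part in the Mag difference was not tested.

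M22357_at differed by 0.34 between days 37 and 4 (SE 0.14, limma adjusted p 0.270), or by 0.22 without the transection array of day 4. Mobp D28111_g_at went the other way, at 20421, 17448 and 20602 on day 4 against 15617, 17267 and 16983 on day 37, with no overlap, a difference of -0.23 in log2 signal (SE 0.10, adjusted p 0.273 in limma), or -0.14 without the saline array of day 37. Of the other Mobp probe sets, D28111_at differed by -0.09 (SE 0.10), D28110_at by -0.09 (SE 0.16) and D28110_g_at by 0.19 (SE 0.14; 0.07 without the saline array of day 4). Fitted on the median over its 4 probe sets, the gene differed by 0.05. In this comparison 3 of the 11 probe sets had an unadjusted p under 0.05, beside 16.4% of all, and 1 of 11 did not overlap, beside 13.1% of all. For day 10 against day 4 the counts were 1 of 11, beside 13.2%, and 2 of 11, beside 11.1%. For day 37 against day 10 they were 0 of 11, beside 7.84%, and 1 of 11, beside 10.8%.

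On the contralateral side the signals of Mag X06554cds_s_at were 4392, 4750.5 and 5331 on day 10 and 4461, 3974 and 3135 on day 37 (saline, lysolecithin and transection), a log2 difference of -0.33 between day 37 and day 10 (SE 0.19, interval -0.75 to 0.09, limma adjusted p 0.999). The transection arrays carried most of it: without either of them the difference was -0.12, and without either saline array it was -0.51. The day 37 array of transection, which had the lowest Mag signals by M22357_at (976) and M22357_g_at (3590.4), also had a beta-actin ratio of 1.53, the highest of the contralateral arrays. Its GAPDH ratio, 1.07, was the lowest of the contralateral arrays. No member had an unadjusted p under 0.05 here, beside 1.93% of all tested probe sets, and 2 of 11 did not overlap, beside 6.91% of all.

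Lesion and contralateral nuclei of the same intervention and day formed 6 pairs. Mog M99485_at and Mobp D28110_g_at were higher on the lesion side in 6 of 6 pairs, and Mbp was lower in 5 of 6, by small amounts that did not pass. Mog M99485_at gave 3494 against 3349 and 3303 against 3139.6 in the saline pairs of days 10 and 37, 3299 against 2977 and 3129 against 2948 in the lysolecithin pairs, and 3650.0 against 2928 and 3444 against 2675 in the transection pairs, lesion side first. The log2 difference was 0.17 (SE 0.08, interval -0.004 to 0.35, limma adjusted p 0.945), and within pairs it ran from 0.06 to 0.36, the highest in the transection pair of day 37. The other Mog probe set, L21995_s_at, was higher in 5 of 6 pairs, with values from -0.03 to 0.39 and a difference of 0.18 (SE 0.09, interval -0.02 to 0.37, limma adjusted p 0.945).

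Mobp D28110_g_at differed by 0.24 (SE 0.09, interval 0.05 to 0.42, limma adjusted p 0.916), with pairs from 0.02 to 0.52. Mobp D28111_g_at, a probe set for the same gene, had a difference of -0.08 (SE 0.06, interval -0.21 to 0.06) and was higher in 1 of 6 pairs, so the probe sets of Mobp disagreed in direction. Mbp had a difference of -0.07 (SE 0.06, interval -0.20 to 0.07) and was higher in 1 of 6 pairs. Cnp had a difference of 0.02 (SE 0.08, interval -0.16 to 0.21) and was higher in 2 of 6.

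Mag was split between pairs. X06554cds_s_at was higher on the lesion side in 3 of 6 pairs, with values from -0.25 in the transection pair of day 10 to 0.77 in the transection pair of day 37, and a mean difference of 0.13 (SE 0.13, interval -0.14 to 0.41, limma adjusted p 0.948). M22357_at ran from -0.38 to 0.78 in the same pairs, with a mean of 0.15 (SE 0.13). Without the transection pair of day 37 the means were 0.01 and 0.02. That pair set a lesion array with a beta-actin ratio of 1.07 against a contralateral array with a ratio of 1.53. In the 6 pairs 1 of 11 probe sets had an unadjusted p under 0.05, beside 4.96% of all, and 0 of 11 had groups that did not overlap, beside 0.0906% of all.

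**Figure D4:**
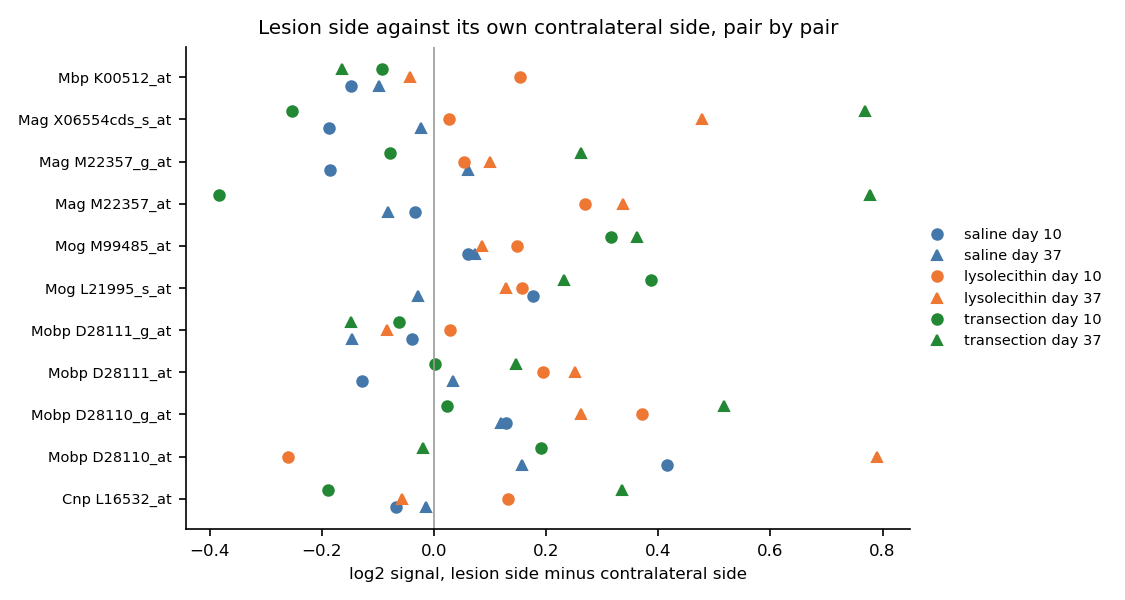
Log2 signal of the lesion side minus that of the contralateral side for the 11 member probe sets in each of the 6 pairs; circles, day 10; triangles, day 37; colours, the intervention. Mog M99485_at and Mobp D28110_g_at were above 0 in 6 of 6 pairs, and the transection pair of day 37 lay highest for Mag X06554cds_s_at (0.77) and M22357_at (0.78).

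Against all 7 control arrays together, Mog M99485_at had the smallest p of the members. Its lesion-side signals after transection, 3444 to 3827, lay above all 7 controls, which ran from 2675 to 3349 with the healthy array at 2782. The log2 difference was 0.29 (SE 0.09, interval 0.10 to 0.49, n = 3 and 7, limma adjusted p 0.259), and after saline it was 0.24 (SE 0.09, interval 0.05 to 0.44, limma adjusted p 0.378). The other Mog probe set, L21995_s_at, differed by 0.23 after transection (SE 0.16). After saline it went the other way, at -0.11 (SE 0.16), with 0 of 3 arrays above the control mean. Transection also gave 0.28 for Mobp D28110_g_at (SE 0.13, limma adjusted p 0.451) and 0.21 for D28111_at (SE 0.09, limma adjusted p 0.426; 0.11 without the transection array of day 4). So 3 of 11 had an unadjusted p under 0.05, beside 11% of all, and 1 of 11 did not overlap with the controls, beside 2.47% of all.

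After lysolecithin, Mag M22357_at differed from the 7 controls by 0.47 (SE 0.19, interval 0.07 to 0.86, limma adjusted p 0.972), the 1 of 11 with an unadjusted p under 0.05, beside 4.65% of all. For saline it was also 1 of 11, beside 12.4% of all. No member lay clear of the controls in either comparison, beside 1.74% of all for lysolecithin and 3.17% for saline. The interventions share these controls, so their values are not independent of each other.

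The myelin genes did not vary as a block over the 16 arrays. Between pairs of the 5 genes, each by its brightest probe set, Pearson's r ran from -0.57 (Mag and Mobp) to 0.62 (Mbp and Mobp), with a median of 0.24 and 7 of 10 above 0. Probe sets of the same gene had a median r of 0.38, with 0.68 to 0.75 among the 3 of Mag. Those of Mobp ran from -0.16 to 0.58, and those of Mog had -0.14. Probe sets of the same gene thus also disagreed for Mog and in part for Mobp. The part of such disagreement in the low r between genes was not tested. The points share the arrays, their scaling and the interventions, and r is given as a description. By the mean of the 5 genes' standardised signals, the most similar of 2708 other genes was Rhob, a small GTPase (r 0.80), followed by Myh1 (0.76), Arf4 (0.73), Dnajb5 (0.73), C9h2orf69 (0.73), Dclk1 (0.72), Macroh2a1 (0.70), Kpnb1 (0.70), Nrcam (0.70) and Ipo7 (0.69). The most opposite were Grm4, a metabotropic glutamate receptor (-0.80), Lox (-0.77), Rabggta (-0.70), Sart3 (-0.69) and Aqp9 (-0.69). None of these 15 is on the list of oligodendrocyte genes used here. The mean was lowest on the healthy array (-1.155) and on the contralateral transection array of day 37 (-0.98). The next lowest was -0.59, on the lysolecithin lesion-side array of day 4. The part of the lowest arrays in these r values was not tested.

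Taken gene by gene, the closest were different genes. They were Psap for Mbp (r 0.81), Chrnb4 for Mag (0.91), Tmeff1 for Mog (0.88), Map6 for Mobp (0.88) and Ccnd1 for Cnp (0.79).

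Other oligodendrocyte genes were equally free of calls. Of 45 names on a list of mature oligodendrocyte and myelin genes that left out the members, 18 could be tested, and 0 passed in any of the 13 comparisons. The gene of the list that came nearest was Nfasc, which encodes a cell adhesion protein of nodes and paranodes, at 0.61 for transection against saline on the lesion side (SE 0.15, limma adjusted p 0.0897); it was singled out after its values were seen. In lysolecithin against saline on the lesion side 13 of 18 were higher, with a median of 0.09, beside 53.1% and a median of 0.02 over all tested probe sets. The 3 of 18 with an unadjusted p under 0.05, beside 20.6% of all, were Nfasc at 0.54 (SE 0.15, limma adjusted p 0.112), the tetraspanin gene Cd9 at 0.50 (SE 0.14, limma adjusted p 0.112) and Apod, which encodes the lipid carrier apolipoprotein D, at 0.23 (SE 0.09, limma adjusted p 0.198). Of the others, Pllp, the myelin protein plasmolipin, had a difference of 0.30 (SE 0.17), Mal, a raft protein of myelin, of 0.38 (SE 0.26), Gjb1, the gap junction protein connexin 32, of 0.19 (SE 0.16) and Ugt8, which makes the myelin lipid galactosylceramide, of -0.19 (SE 0.10).

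In the 6 pairs 17 of the 18 genes were higher on the lesion side, by little: their median was 0.07, beside -0.001 over all tested probe sets, of which 49.5% were higher. The 1 of 18 with an unadjusted p under 0.05, beside 4.96% of all, was Sirt2, a deacetylase, at 0.20 (SE 0.08, limma adjusted p 0.945). Ugt8 had 0.17 (SE 0.09), Enpp2 0.15 (SE 0.09), Car2 0.12 (SE 0.09), Gjb1 0.11 (SE 0.12) and Sox10, a transcription factor of oligodendrocytes, -0.06 (SE 0.10). The summed signal of the 18 genes was 62806 to 64668 on the lysolecithin lesion side against 58273 to 58800 on its contralateral side, while the ranges overlapped for saline (57952 to 61739 against 58701 to 62839) and for transection (59980.0 to 64226 against 58992 to 61806). The healthy array was lowest, at 53980.0, as for Mbp. Day 4 has lesion-side arrays alone in these ranges.

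Marker genes of other cell types were measured in the same comparisons. Of the 10 tested microglia and macrophage genes, 0 were higher on the lesion side in the 6 pairs, beside 49.5% of all tested probe sets. Their median was -0.27, and 3 of 10 had an unadjusted p under 0.05, beside 4.96% of all. On the lesion side 10 of 10 were higher after lysolecithin and after transection than after saline, beside 53.1% and 50.6% of all, with medians of 0.50 and 0.35. None of these 10 passed the threshold. At an unadjusted p under 0.05 there were 6 of 10 for lysolecithin, beside 20.6% of all tested probe sets, and 5 of 10 for transection, beside 16.9%. On the contralateral side 10 of 10 were again higher than after saline, with medians of 1.13 for lysolecithin and 0.95 for transection, and 8 and 6 of 10 were under 0.05, beside 3.6% and 3.15% of all. In lysolecithin against saline on the lesion side, 4 of 5 tested endothelial and meningeal genes were higher, with a median of 0.53, and 3 of 5 had an unadjusted p under 0.05, also beside 20.6% of all. Astrocyte genes had medians of 0.08 for lysolecithin and 0.07 for transection against saline, with 3 and 5 of 11 at an unadjusted p under 0.05. Neuronal genes had medians of -0.16 and -0.19, with 1 and 5 of 10. The same background shares, 20.6% for lysolecithin and 16.9% for transection, stand beside these counts. The neuronal intermediate filament gene Ina passed, at -0.77 for transection against saline (SE 0.13, limma adjusted p 0.0338) and -0.68 for transection against lysolecithin (SE 0.13, limma adjusted p 0.0483). Both calls were lost under 4 alternatives, in which 0 probe sets passed in either comparison: with no detection filter, with no intensity trend, with no day term, and by the difference of lesion-minus-contralateral differences. Of 14 tested cholesterol synthesis genes, 4 were higher after lysolecithin and 2 after transection than after saline, with medians of -0.09 and -0.13, and 0 passed. For Schwann cells, which make peripheral myelin and also express Mbp, Mag and Cnp, 2 of 10 listed genes could be tested: Pmp22, Present on 16 arrays, and Egr2, Present on 8. Prx was Present on 0 arrays. The part of these cells in the myelin gene signals was not tested. Of 8 listed precursor genes 5 could be tested. Higher were 2 of 5 for lysolecithin and 2 of 5 for transection against saline, with medians of -0.16 and -0.02. In the 6 pairs 3 of 5 were higher, with a median of 0.04. At an unadjusted p under 0.05 there were 1, 1 and 0 of 5, beside 20.6%, 16.9% and 4.96% of all, and 0 passed. For transection it was Cspg5, at -0.33 (SE 0.12, limma adjusted p 0.205). Pdgfra, Present on 16 arrays, had a difference of -0.16 for lysolecithin against saline (SE 0.15) and of 0.20 in the 6 pairs (SE 0.11). Cspg4 was Present on 0 arrays.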

How the data were processed

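Total RNA was extracted with Trizol and turned into biotin-labelled cRNA from an oligo-dT primer, per the labels' protocols. MAS5, without a version, is named in the submitters' processing notes. The signal of each probe set is a linear intensity deposited by the authors, with a trimmed mean of 801 on every array. Detection calls and each detection p-value are as the authors deposited them. A second table of the whole series, also deposited, holds log2 values, and how it was made is not given in the sources used here.

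Signals kept the authors' scaling and were taken as log2(signal + 16). Probe sets Present on at least 3 of 16 arrays were tested, 4413 in all, with 59 control probe sets left out. Each comparison was fitted over all of them with limma 3.58.1 in R 4.3.3 (intensity trend, Benjamini-Hochberg adjustment, threshold 0.05). Lesion-side and contralateral comparisons had terms for intervention and day (4 and 2 residual degrees of freedom). The 6 pairs, formed by intervention and day in the labels, had the pair as a block (5), and the comparisons with the 7 controls had no further term (12). The other work used Python 3.11.15 with numpy 2.4.6, pandas 2.3.3, scipy 1.17.1 and matplotlib 3.10.9. The number of arrays limits the precision. The members, gene lists and tests were chosen with earlier results of these data known. All 11 member probe sets are accounted for, and those given with a full test were picked after their values were seen. Where 1 value per gene was needed, the probe set of the highest mean log2 signal stood for it. Likeness was the Pearson r with the mean of the 5 standardised genes, with the 10 highest, the 5 lowest and the closest per gene named. List names were matched to current symbols of the platform annotation, so genes under older names were not analysed here. The fit was tested on simulated data. The alternatives were another pseudocount (1 or 64), no detection filter, quantile normalization, the series value table, no intensity trend, other terms, other controls, and leaving out each array.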

Additional observations from a re-analysis of the deposited data

How the results depend on the processing

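None of the 46 member results given with a test passed the threshold under any alternative: the smallest adjusted p was 0.0821 over 364 values and 0.0633 over 467 values that left out 1 array. The limits are the 1 array per condition and the few residual degrees of freedom. Some values changed sign, among them those of Mog M99485_at in lysolecithin against saline (-0.16) and of Mobp D28111_g_at in day 37 against day 4 (-0.23). Quantile normalization gave 0.0171 and 0.0174 for Cnp in transection and in lysolecithin against saline and 0.0563 for Mbp in the 6 pairs. The series value table gave 0.0236 for Cnp in lysolecithin against saline, 0.0241 for Mobp D28110_at in transection against saline and 0.0626 for Mbp in the pairs. The median over a gene's probe sets gave 0.0549 for Mog and 0.127 for Mobp in lysolecithin against saline, 0.0490 for Mobp in day 37 against day 4 and 0.160 for Mobp in the pairs. The difference of lesion-minus-contralateral differences gave -0.00525 for Mbp, -0.0127 for Mobp and 0.113 for Cnp in transection against saline, and 0.0495 for Mog, 0.0657 for Mobp, -0.0217 for Mobp D28110_at and 0.0785 for Cnp in lysolecithin against saline. Leaving out 1 array, the ranges that crossed 0 were, for transection against saline, -0.0298 to 0.0807 for Mbp, -0.0717 to 0.0717 for Mobp, -0.0796 to 0.0264 for Cnp and -0.0333 to 0.223 for Mag M22357_at. For lysolecithin against saline they were -0.0229 to 0.0603 for Mbp and -0.144 to 0.00885 for Cnp, and for Cnp in the pairs -0.0392 to 0.0656. Mobp D28110_at ran from -0.298 to 0.0514 for transection against saline, from -0.0480 to 0.217 for lysolecithin against saline and from -0.202 to 0.105 for day 37 against day 4. Without the replicate block the pairs kept their differences, 0.17 for Mog M99485_at, and its adjusted p was 0.999.

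The median of the 5 genes stayed within the spread except by the median over probe sets (0.163 for transection against saline, 0.122 for lysolecithin against the controls) and, without 1 array, in transection against saline on the contralateral side (-0.250 to 0.0523). Counts over all probe sets were less stable, and the cause was not tested. Transection against saline (32) gave 0 with no detection filter, with no trend, with no day term and by the difference of differences, and 0 to 56 without 1 array. Lysolecithin against saline (7) gave 1, 1, 0 and 0 in that order, 4 with quantile normalization and 1 to 95 without 1 array. Transection against lysolecithin (21) gave 0 under the same 4 changes, 9 with a pseudocount of 1, 6 from the series table and 0 to 31 without 1 array. Day 10 against day 4 (2) gave 0 with no filter, 1 under quantile normalization, the series table and no trend, and 0 to 5 without 1 array. Day 37 against day 4 (1) gave 0 with no filter or trend, 2 with quantile normalization, 5 from the series table and 0 to 21 without 1 array. Transection against 7 controls (1) gave 0 with no filter, trend or healthy array and with quantile normalization, 6 from the series table, 2 with days 10 and 37 alone and 0 to 64 without 1 array. Lysolecithin against saline on the contralateral side (1) gave 0 with no filter or trend and with quantile normalization, 4 from the series table and 0 to 66 without 1 array. Of the comparisons with 0 calls, the series table gave 2 for saline against controls and 2 for contralateral transection against saline. Without 1 array these gave 0 to 1 and 1 to 54, and day 37 against day 10 gave 0 to 17 on the lesion side and 0 to 61 on the contralateral side.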
